A study of Rattus norvegicus with 30 samples.

Results

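Macrophage receptors and osteopontin were followed in rat lung after inhalation of copper oxide nanoparticles. The group holds 10 genes: the sialic acid receptor Siglec1, the scavenger and endocytic receptors Msr1, Marco, Cd163 and Mrc1, the lipid receptor Trem2, the membrane glycoproteins Gpnmb and Cd68, the secreted ligand Spp1 (osteopontin) and the growth factor receptor Csf1r. They were chosen by symbol, through the RefSeq transcript that each probe names. All 10 passed the filter on dim probes, among 18421 genes that did so and 26913 genes on the array. Each lung RNA, labelled with Cy5, was hybridised on a 2-colour Agilent array against a common reference RNA labelled with Cy3, so every level is a log2 ratio of lung to reference. No level of one gene is set against that of another.

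The animals were adult male Wistar rats of the outbred strain HsdCpb:WU, 8 weeks old on arrival and acclimatised for 2 weeks. They breathed nanoparticles nose-only on 5 consecutive days, at a 6-hour equivalent dose of 3.3 mg/m3 (low) or 13.2 mg/m3 (high), and controls breathed air. Lungs were taken 1 day after the last exposure (day 6) or 22 days after it (day 28). Each of the 6 combinations of dose and day held 5 rats, 30 in all, and each rat gave 1 array. The treatment label names nanoparticles for the 0 mg/m3 rats as well, which are taken here as air controls from their dose and the protocol. The channel 2 label gives a reference RNA from 14 rat cell lines, whereas the labelling protocol names a mouse reference.

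Alveolar macrophages live on the airway side of the lung, clear inhaled particles with scavenger receptors and recycle surfactant lipid, while monocytes that enter an inflamed lung mature into macrophages of another profile. Csf1r is a growth factor receptor of macrophages that binds Csf1 and Il34. Trem2 senses lipids and signals through the adaptor Tyrobp, and Gpnmb and Cd68 lie in the lysosomal compartment of cells with a high load of ingested material. Siglec1 is known as a gene that type I interferon induces, and osteopontin binds integrins and Cd44 and is secreted by macrophages, epithelium and other cells. In whole lung, more or fewer cells of a type and more or less RNA per cell cannot be told apart.

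The upstream sequences of 4 members are given because Cd68 and Gpnmb had the most alike profiles of any member pair, and Trem2 and Spp1 were called at both doses on day 6. RefSeq (build GRCr8) held a promoter for 8 of the 10 members, Siglec1 and Msr1 not being among them. Each line shows the 250 bases before the annotated start, 5′ to 3′ on the gene's strand, with capitals for TGANTCA, the core that AP-1 factors recognise, and GAGGAA, a core of sites for PU.1, the macrophage factor encoded by Spi1, both searched on both strands. The regions are chr10:54882442-54882691 (minus strand) for Cd68, chr4:79340878-79341127 (plus) for Gpnmb, chr9:20151780-20152029 (minus) for Trem2 and chr14:5619805-5620054 (minus) for Spp1.
Cd68: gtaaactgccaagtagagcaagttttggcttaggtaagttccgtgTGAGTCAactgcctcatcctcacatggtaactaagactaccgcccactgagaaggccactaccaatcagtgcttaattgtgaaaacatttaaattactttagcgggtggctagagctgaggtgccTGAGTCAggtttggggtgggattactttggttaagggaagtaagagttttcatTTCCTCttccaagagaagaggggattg
Gpnmb: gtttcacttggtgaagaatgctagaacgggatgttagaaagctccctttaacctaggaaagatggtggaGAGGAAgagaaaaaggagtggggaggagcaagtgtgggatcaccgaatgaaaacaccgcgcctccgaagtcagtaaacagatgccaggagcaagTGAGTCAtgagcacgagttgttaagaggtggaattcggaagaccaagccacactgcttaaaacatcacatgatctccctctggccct
Trem2: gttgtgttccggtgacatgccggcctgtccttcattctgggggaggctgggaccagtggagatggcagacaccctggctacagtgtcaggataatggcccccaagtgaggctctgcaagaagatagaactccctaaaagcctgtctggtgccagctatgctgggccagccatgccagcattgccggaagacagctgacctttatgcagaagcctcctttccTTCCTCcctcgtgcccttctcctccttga
Spp1: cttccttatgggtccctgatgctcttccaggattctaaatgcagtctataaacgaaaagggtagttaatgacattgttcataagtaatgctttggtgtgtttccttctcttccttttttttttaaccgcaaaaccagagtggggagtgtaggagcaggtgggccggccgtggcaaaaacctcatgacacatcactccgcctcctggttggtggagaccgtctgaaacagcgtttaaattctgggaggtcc

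TGANTCA was found in 2 of the 8 members' windows, Cd68 and Gpnmb, and in 6.34% of 33469 windows of the same length. Cd68 held it at 205 to 199 and at 80 to 74 bases before the start, and Gpnmb at 87 to 81 bases. GAGGAA was found in 6 of 8 members (Cd68, Csf1r, Gpnmb, Marco, Mrc1 and Trem2) and in 23.3% of all windows. In Cd68 and Trem2 it lay at 27 to 22 and 29 to 24 bases before the start, and in Gpnmb at 181 to 176 bases. CACNTG was in 7 of 8 members and 38.4% of windows, and CACGTG, which is 1 case of it, in 0 members and 5.59%. The interferon-stimulated response element core, the STAT core TTCNNNGAA and the composite PU.1 and IRF element were each in 0 of the 8 windows, and in 3.41%, 7.67% and 0.117% of all. Siglec1 and Msr1 had no promoter at hand and were not searched. These are letter matches in a short window, chosen after the values were known.

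The arrays were of similar quality. Their median Cy5 intensity ran from 216 to 432, and 59.5% to 68.4% of probes were well above background. Markers of alveolar type II and type I cells were high in all 30 lungs, with mean log2 ratios of 5.30 to 6.28 and 3.58 to 4.98. A mean over 12 heart muscle markers stood apart in 4 lungs: 4.67 in air rat 4 and 2.22 in low dose rat 49 of day 6, 1.37 in low dose rat 54 and 1.43 in high dose rat 83 of day 28. Group medians of that mean lay between -0.41 and -0.30. Results are given without these 4 lungs where a call or a direction changed. The probes of 9 members were well above background on all 30 arrays and none was saturated. Marco, a scavenger receptor for bare particles, was well above background on 5 arrays, 1 of air rats and 2 of low dose rats on day 6 and 2 of air rats on day 28, so its values mostly describe background.

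On day 6 after the high dose, 8 of the 10 members rose and none fell. A gene was called where its limma p, adjusted by Benjamini-Hochberg over all 18421 genes, was under 0.05, and 21.1% of all genes were called higher and 15.4% lower in this comparison. Siglec1 rose most, 12.7-fold, followed by Spp1 at 8.35-fold, Trem2 at 4.64-fold and Msr1 at 3.91-fold. Gpnmb and Cd68 rose 3.26-fold and 3.07-fold. Cd163 and Csf1r rose about alike, 1.53-fold and 1.54-fold. The members' median log2 fold change was 1.66 against 0.01 for all genes. For 6 members every high dose rat lay above every air rat, as did 16.8% of all genes. Among all genes called in either direction, 36.5% of those tested, 57.7% were higher, a split that became 43.6% with median centring, 45.7% from Cy5 alone and 46.1% in the authors' value table.

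**Figure D1:**
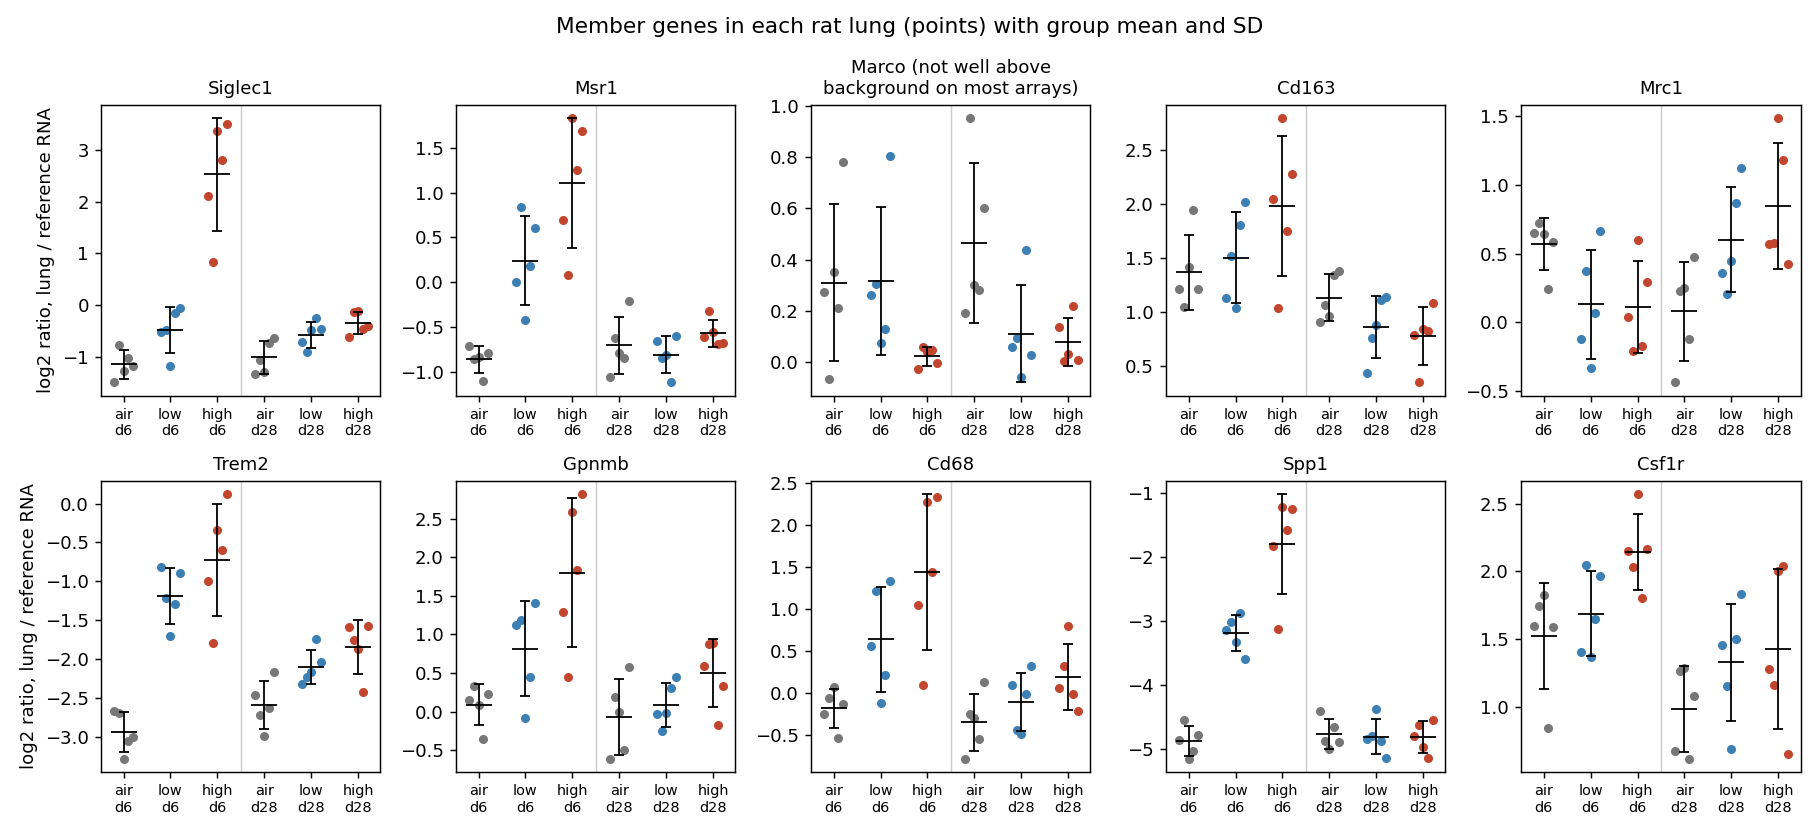
Log2 ratio of lung to reference RNA of each member in each of 30 rats (points), by dose and day, with group mean and SD (n = 5), each panel on its own scale. High dose rats of day 6 had Siglec1 at 0.84 to 3.50 and Spp1 at -3.13 to -1.22, above every air rat.

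Siglec1, a receptor that binds sialic acids on cells and vesicles, had log2 ratios of -1.49, -0.76, -1.27, -1.02 and -1.17 in air rats 1 to 5 of day 6. In high dose rats 75 to 79 it was 2.11, 0.84, 3.36, 2.80 and 3.50. The groups did not overlap, and the rise was 3.67 ± 0.31 (log2, SE; adjusted p = 3.66e-10). Each SE and interval given here rests on a spread shared by all 6 groups, not on the scatter of the groups compared. In low dose rats 47 to 51 it was -0.51, -0.47, -1.18, -0.14 and -0.06. Rat 49 lay within the air range and the other low dose rats above it, and the mean difference of 0.67 ± 0.31 was not called (adjusted p = 0.22). High dose rats stood 3.0 ± 0.31 above low dose rats (adjusted p = 1.57e-07), again with no overlap. The low dose difference was 18.3% of the high dose difference on the log2 scale. Within the 4 slides the high dose differences were 2.17 to 4.63.

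Spp1, whose product osteopontin is a ligand for integrins and Cd44, had log2 ratios of -4.85, -4.54, -5.14, -5.02 and -4.78 in the air rats of day 6. It was -3.14, -3.02, -3.33, -2.87 and -3.60 after the low dose and -1.83, -3.13, -1.22, -1.58 and -1.26 after the high dose. Every exposed rat lay above every air rat. High dose rat 76 lay within the low dose range. The rise was 1.68 ± 0.24 after the low dose (adjusted p = 1.48e-05) and 3.06 ± 0.24 after the high dose (adjusted p = 5.4e-11), and the doses differed by 1.39 ± 0.24 (adjusted p = 0.000159). The low dose gave 54.7% of the high dose change. Within slides the differences from air were 1.40 to 2.27 and 1.69 to 3.92. Between doses they were -0.11 to 1.72, above 0 on 3 of 4 slides.

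Trem2, the lipid-sensing receptor, was at -2.66, -2.70, -3.28, -3.06 and -3.0 in air rats of day 6. After the low dose it was -0.82, -1.22, -1.71, -1.29 and -0.89, and after the high dose -1.0, -1.80, -0.35, -0.60 and 0.12. All 10 exposed rats lay above the air rats, while the 2 doses overlapped. The rise was 1.75 ± 0.24 after the low dose (adjusted p = 1.1e-05), the largest of the 10 members at that dose, and 2.22 ± 0.24 after the high dose (adjusted p = 3.14e-08). The doses differed by 0.46 ± 0.24, with a 95% interval of -0.03 to 0.96 (adjusted p = 0.247). The low dose difference was 79.2% of the high dose difference.

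Msr1, scavenger receptor A, had log2 ratios of -0.71, -0.86, -0.83, -1.11 and -0.79 in air rats of day 6. They were 0.00, 0.83, -0.42, 0.18 and 0.60 after the low dose and 0.69, 0.08, 1.83, 1.25 and 1.68 after the high dose. Exposed and air rats did not overlap at either dose. The rise was 1.1 ± 0.24 (adjusted p = 0.00321) and 1.97 ± 0.24 (adjusted p = 2e-07). The doses differed by 0.87 ± 0.24 (adjusted p = 0.0157), a call that was lost without rat 49, 77 or 79 (adjusted p = 0.0663, 0.0748 and 0.0702). Within slides the difference between doses was -0.76 to 1.65, above 0 on 3 of 4.

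Gpnmb, a glycoprotein of lysosome-rich macrophages, was at 0.15, 0.33, 0.08, -0.35 and 0.23 in air rats of day 6. It was 1.12, 1.19, -0.09, 0.45 and 1.41 after the low dose and 1.29, 0.45, 2.59, 1.84 and 2.82 after the high dose. The high dose rats lay above the air rats, by 1.71 ± 0.33 (adjusted p = 0.000186), and the low dose difference of 0.73 ± 0.33 was not called (adjusted p = 0.212). Cd68, a lysosomal glycoprotein used as a general macrophage marker, ran in parallel. It was -0.25, -0.05, 0.08, -0.53 and -0.13 in air rats, 0.56, 1.22, -0.11, 0.22 and 1.33 after the low dose and 1.05, 0.10, 2.28, 1.44 and 2.34 after the high dose. Its rise at the high dose was 1.62 ± 0.32 (adjusted p = 0.000175), and the low dose difference was 0.82 ± 0.32 (adjusted p = 0.121).

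Cd163, the haptoglobin-haemoglobin receptor, and Csf1r, the receptor for Csf1 and Il34, moved least among the members called. Cd163 was 1.04 to 1.94 in air rats and 1.04 to 2.80 in high dose rats of day 6, overlapping, with a difference of 0.62 ± 0.23 (adjusted p = 0.0403). The Cd163 call held in 3 of the 10 fits that left out 1 rat and was lost without air rat 1, 2, 3 or 5 or high dose rat 75, 77 or 79 (adjusted p = 0.0798, 0.0978, 0.0575, 0.0812, 0.068, 0.169 and 0.0982). Csf1r was 0.84 to 1.83 in air rats and 1.81 to 2.57 in high dose rats, with a difference of 0.62 ± 0.24 (adjusted p = 0.0421). That call too held in 3 of 10 such fits, being lost without air rat 1, 4 or 5 or high dose rat 75, 76, 77 or 79 (adjusted p = 0.0575, 0.147, 0.0591, 0.0639, 0.0509, 0.121 and 0.0683). It was also lost without the 4 lungs with heart muscle RNA (0.46, adjusted p = 0.0932). A second Csf1r probe gave 0.56 ± 0.16 (adjusted p = 0.00599 in a fit with 1 row per probe). The lowest Csf1r value, 0.84, and the highest Cd163 value of the air group, 1.94, both came from rat 4.

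Mrc1, the mannose receptor, did not follow the others. It was 0.65, 0.72, 0.64, 0.24 and 0.58 in air rats of day 6, -0.12, 0.37, -0.33, 0.07 and 0.66 after the low dose and 0.04, -0.21, 0.60, -0.17 and 0.29 after the high dose. The exposed groups overlapped the air group, and the differences were -0.44 ± 0.22 (adjusted p = 0.256) and -0.46 ± 0.22 (adjusted p = 0.101). The high dose difference was called without rat 77 (-0.58, adjusted p = 0.0492) and with the compared groups alone in the fit (adjusted p = 0.0338), and with the scanner's processed signals it was -0.866, not called. Marco gave -0.06 to 0.78 in air rats, 0.08 to 0.80 in low dose rats and -0.03 to 0.06 in high dose rats. It was not well above background in any of the 5 high dose rats, so no fold is given and its differences are not read.

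After the low dose on day 6, 3 of the 10 members rose, Trem2 3.37-fold, Spp1 3.19-fold and Msr1 2.14-fold, and none fell. In that comparison 6.72% of all genes were called, 4.97% higher and 1.75% lower. For the same 3 members the low dose and air rats did not overlap, as for 5.37% of all genes. The members' median difference was 0.70. Between the high and the low dose, 3 members were higher at the high dose (Siglec1, Spp1 and Msr1), where 11.9% of all genes were called, 8.01% higher and 3.87% lower. Siglec1 was the member whose high dose rats all lay above the low dose rats, as for 5.87% of all genes, and Marco, at background, was the one whose high dose rats all lay below, as for 3.05%. Gpnmb missed the threshold there at 0.98 ± 0.33 (adjusted p = 0.0541), and passed it without background correction (adjusted p = 0.0491) and without rat 48, 51, 75 or 76. Without high dose rat 76, 7 members were called between the doses, with Gpnmb, Cd68, Trem2 and Cd163 added (differences of 1.32, 1.13, 0.73 and 0.715). The 11.9% of all genes belongs to the fit with all rats, so the 7 are not read as a result about the members.

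**Figure D2:**
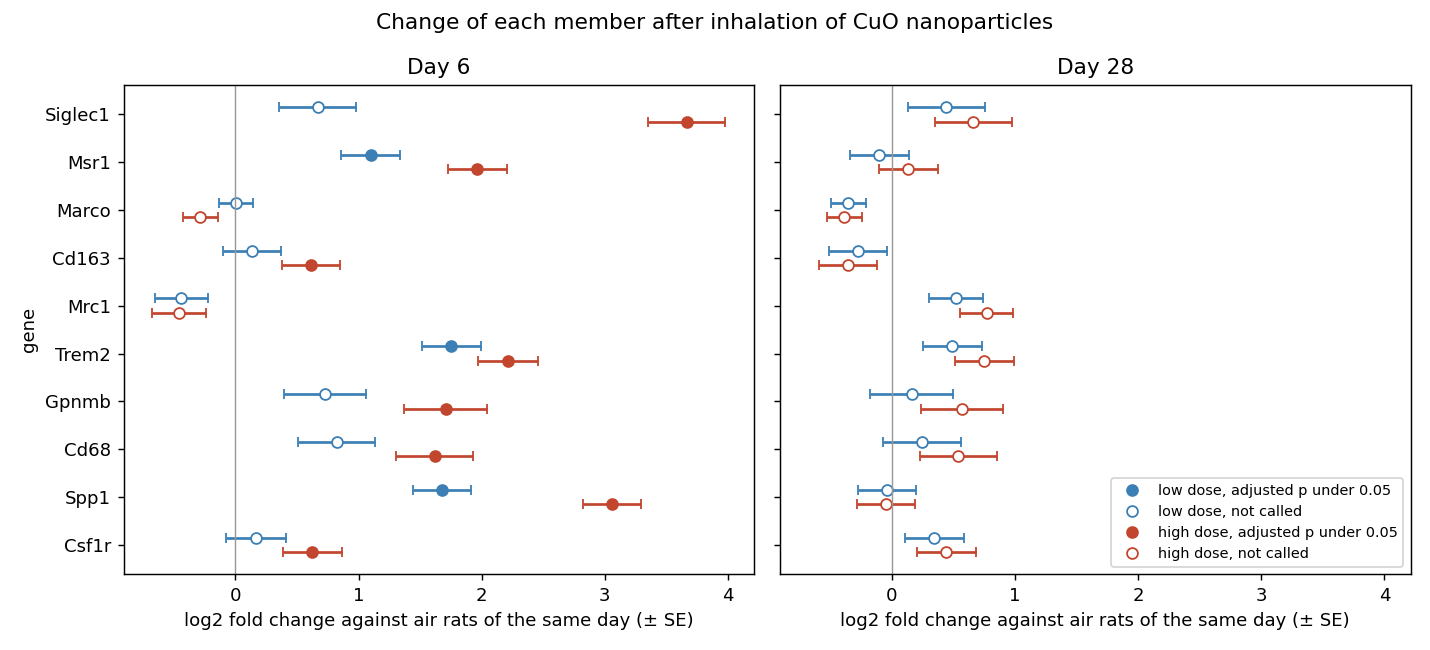
Log2 fold change ± SE of each member against the air rats of the same day (5 rats a group), for the low (blue) and high (red) dose, with filled points where the adjusted p was under 0.05. On day 6, 8 members were called at the high dose and 3 at the low dose, and on day 28 none.

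High dose rats of day 6 differed more among themselves than air rats did for all members but Csf1r and Marco, the latter at background. The largest high dose SDs on day 6 were 1.09 for Siglec1, 0.97 for Gpnmb, 0.93 for Cd68 and 0.78 for Spp1, against 0.27, 0.26, 0.23 and 0.23 in air rats. For Csf1r the SDs were 0.28 in high dose and 0.39 in air rats. Rat 76 was the lowest of the high dose rats for 8 of 10 members, and rats 77 and 79 held the highest value for 5 and 4. Rat 49 was the lowest low dose rat for 9 of 10 members, and it is also the lung with a heart muscle marker mean of 2.22. The part of that in the members' values was not tested. Without rat 49 the same comparison had Trem2 at 1.88, Msr1 at 1.26 and Siglec1 at 0.85.

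**Figure D3:**
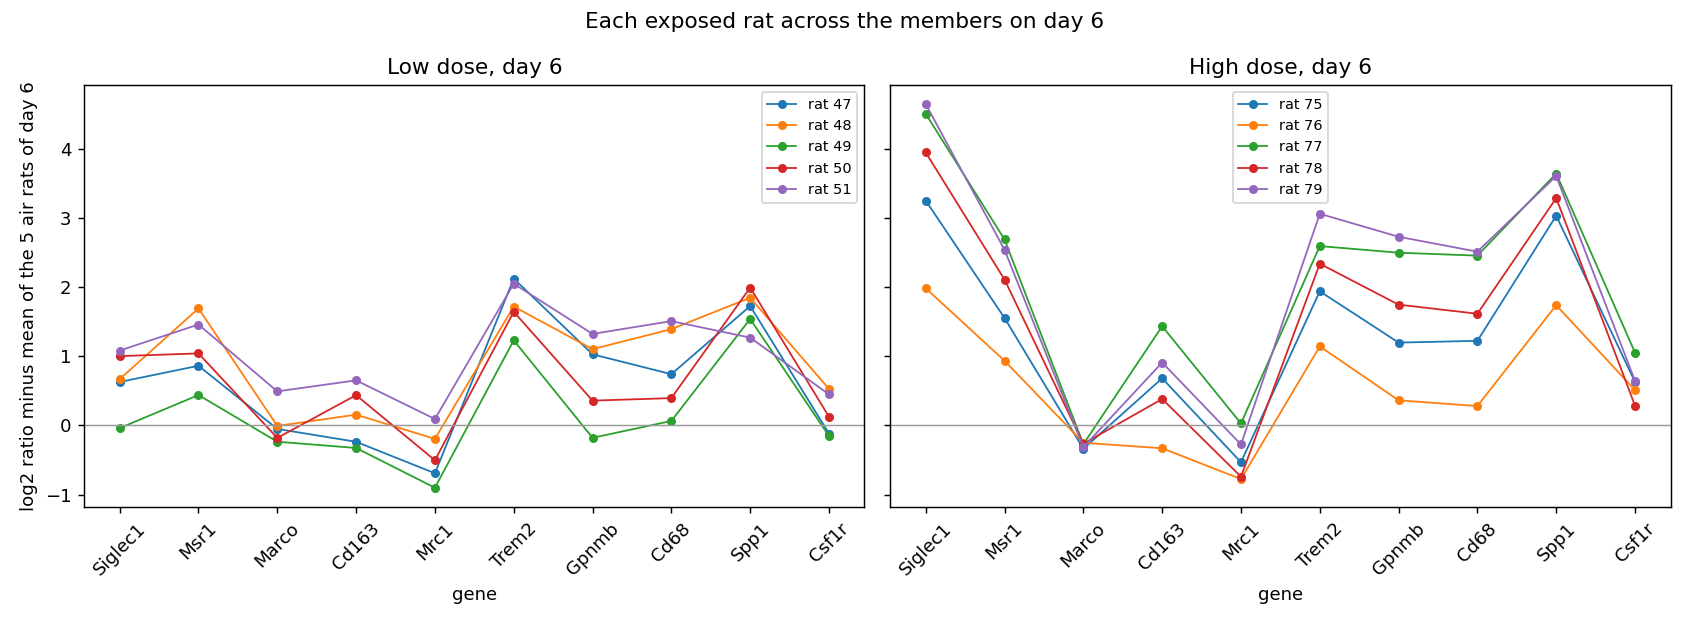
Log2 ratio of each low dose (left) and high dose (right) rat of day 6 minus the mean of the 5 air rats of day 6, for each member, with a line for each rat. Rat 49 and rat 76 are the lowest lines for most members, and Mrc1 lies below 0 in most exposed rats.

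Cd68 was then taken as a reference gene, and each gene's difference was set against that of Cd68 in the same rats. This shows only whether a gene moved by more or less than Cd68. Whether Cd68 followed the number of macrophages was not tested. On day 6 after the high dose, Siglec1 rose by 2.05 ± 0.36 more than Cd68 (adjusted p = 3.93e-07) and Spp1 by 1.44 ± 0.37 more (adjusted p = 0.000155). Of all genes 0.499% were called higher relative to Cd68, and 95.7% in either direction. Msr1, Trem2 and Gpnmb differed from Cd68 by 0.35 ± 0.36, 0.60 ± 0.36 and 0.09 ± 0.36 and were not called. Mrc1 (-2.08 ± 0.36), Cd163 (-1.0 ± 0.37) and Csf1r (-0.99 ± 0.37) were lower relative to Cd68. Since Cd68 rose, 95.2% of all genes were lower relative to it, with a median of -1.61, so Mrc1 lay below that median and Cd163 and Csf1r above it. The Cd163 difference was not called without the 4 lungs with heart muscle RNA.

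Where Csf1r stood in for Cd68 the high dose differences were 3.04 for Siglec1, 2.44 for Spp1, 1.59 for Trem2, 1.34 for Msr1 and 1.08 for Gpnmb. The other members are not listed for it. The share of all genes called with this reference or the next is not given, so no call is read from them. With the mean of 8 pan-leukocyte markers, which include genes of all white blood cells, they were 3.20, 2.59, 1.75, 1.5 and 1.24, and Mrc1 was at -0.93. After the low dose, Trem2 was higher than Cd68 by 0.93 ± 0.36 (adjusted p = 0.0475) and Mrc1 lower by 1.26 ± 0.36 on the log2 scale (adjusted p = 0.0289), where 38.6% of genes were called, 0.266% higher and 38.4% lower. The low dose count of 2 ranged from 0 to 4 when 1 rat was left out and took another value than 2 in each of the 10 such fits. It fell to 0 without air rat 1, 4 or 5 or low dose rat 47, 48 or 51, to 1 without air rat 2 or 3, and rose to 3 without rat 49 and to 4 without rat 50. On day 28 none of the other members was called relative to Cd68 at either dose, against 0.0543% and 0.0109% of all genes.

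**Figure D4:**
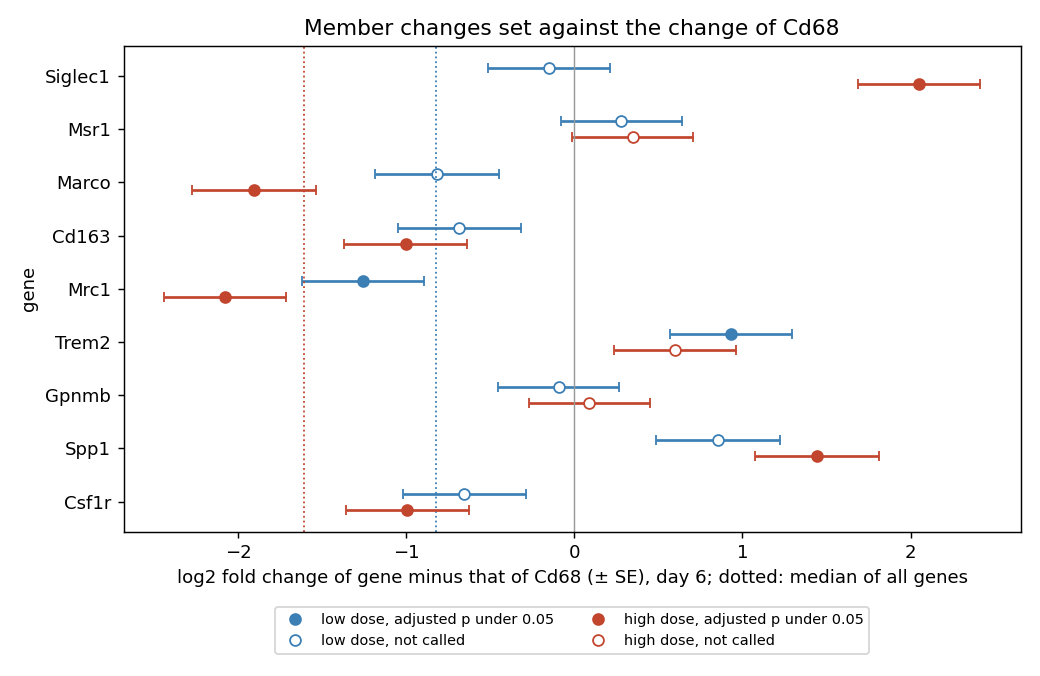
Log2 fold change of each member minus that of Cd68 on day 6 (± SE, 5 rats a group) for the low (blue) and high (red) dose, with the median of all genes dotted. Siglec1 and Spp1 lie above 0 at the high dose, and Mrc1 lies below the all-gene medians of -1.61 and -0.82, while Marco was at background and is not read.

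By day 28 no member was called in any comparison with limma. Of all genes 0.185% were called for the high dose, 0.0109% for the low dose and 0.141% between the doses. At an unadjusted p under 0.05 the high dose gave 4 of 10 members against 15.1% of all genes, the low dose 2 against 5.96%, and the doses compared with each other 0 against 2.6%. The 4 were Siglec1, Mrc1, Trem2 and Marco, and the 2 were Mrc1 and Marco. Marco, lower in both, was at background and is not read, so these counts rest partly on it. Spp1 was at -4.40 to -5.0 in air rats, -4.37 to -5.14 after the low dose and -4.54 to -5.14 after the high dose, overlapping fully, with a high dose difference of -0.05 ± 0.24 (95% interval -0.53 to 0.44). Msr1 differed by 0.13 ± 0.24.

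Siglec1 on day 28 was -1.33, -1.06, -1.28, -0.72 and -0.63 in air rats 6 to 10 and -0.60, -0.13, -0.11, -0.47 and -0.41 in high dose rats 80 to 84. These groups did not overlap, as for 0.684% of all genes in that direction, yet the difference of 0.66 ± 0.31 was not called (adjusted p = 0.318). That SE is shared by all 6 groups. The SDs were 0.32 and 0.21 in these air and high dose rats, and 1.09 in high dose rats of day 6. Trem2 was -2.46, -2.72, -2.99, -2.62 and -2.16 in air rats and -1.59, -1.75, -1.87, -2.42 and -1.57 in high dose rats, with 1 of 5 high dose rats in the air range, a difference of 0.75 ± 0.24 (adjusted p = 0.181). Mrc1 was -0.44, 0.23, 0.25, -0.12 and 0.48 in air rats and 0.57, 0.58, 1.49, 1.18 and 0.43 in high dose rats, a difference of 0.77 ± 0.22 (adjusted p = 0.132). All but 1 of the high dose rats lay above the air range. From Cy5 alone the Mrc1 difference was called (0.90, adjusted p = 0.0427). Within the 3 slides that held both groups it was 0.22 to 0.71. Gpnmb and Cd68 differed by 0.57 ± 0.33 and 0.54 ± 0.32.

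The change of the high dose effect from day 6 to day 28 was tested as an interaction of dose and day, called for 16.7% of all genes. It was lower on day 28 for 5 members, where 11.2% of all genes were, and higher for 1, where 5.49% were. The 5 were Spp1 (-3.11 ± 0.33, adjusted p = 9.84e-08), Siglec1 (-3.0 ± 0.44, adjusted p = 1.34e-05), Msr1 (-1.83 ± 0.34, adjusted p = 0.000248), Trem2 (-1.46 ± 0.34, adjusted p = 0.00303) and Cd163 (-0.97 ± 0.33, adjusted p = 0.043). For Cd163 the difference from air went from 0.62 on day 6 to -0.36 ± 0.23 on day 28, the latter not called (adjusted p = 0.462). Mrc1 went the other way, by 1.23 ± 0.31 (adjusted p = 0.00544), from -0.46 on day 6 to 0.77 on day 28. Part of this lay in the air rats, whose Mrc1 mean was 0.57 on day 6 and 0.08 on day 28. In high dose rats it was 0.11 and 0.85. The Mrc1 call held in all 20 fits that left out 1 rat of these groups, and the Cd163 call in 6 of 20, with adjusted p from 0.00388 to 0.0984. Of 11 processing alternatives, 6 lost the Cd163 call (adjusted p of 0.0572 to 0.257) and none the Mrc1 call, whose value reached 2.14 with the scanner's processed signals. The Cd163 call was lost without air rats 1, 2, 3, 5, 7, 9 or 10 and without high dose rats 75, 77, 79, 80, 81, 82 or 83. Gpnmb (-1.14 ± 0.47) and Cd68 (-1.08 ± 0.45) missed the threshold, at adjusted p = 0.1 and 0.0987, and passed it without rat 76. For Csf1r the 2 probes disagreed, with -0.18 ± 0.34 (adjusted p = 0.778) on the brighter probe and -0.78 ± 0.22 (adjusted p = 0.0152) on the second.

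At the low dose the change from day 6 to day 28 was called for Spp1 (-1.71 ± 0.33, adjusted p = 0.00274) and Trem2 (-1.26 ± 0.34, adjusted p = 0.0497), where 1.95% of all genes were called, 1.64% lower and 0.309% higher. The Trem2 call held in 4 of 20 fits that left out 1 rat, with adjusted p from 0.0244 to 0.11. It held without air rat 1 or 8 or low dose rat 49 or 55 and was lost without any other. Of 11 processing alternatives 7 lost it, with adjusted p of 0.0504 to 0.302. Msr1, at -1.20 ± 0.34 (adjusted p = 0.0617), was called under 3 of them and without rat 49. The low dose difference of Mrc1 went from -0.44 to 0.52, a change of 0.96 ± 0.31 that did not pass (adjusted p = 0.129). Between the days, no member was called in air rats in the limma test, where 2.95% of all genes were. At an unadjusted p under 0.05 there were 2 of 10 members, Mrc1 and Csf1r, against 24.1% of all genes. Mrc1 was lower on day 28, at -0.49 ± 0.22 (adjusted p = 0.168), which enters its changes of effect at both doses. Csf1r was called without the 4 lungs with heart muscle RNA (-0.71, adjusted p = 0.0485). The 2 Csf1r probes also disagreed in sign there, at -0.54 and 0.34.

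Ordered by group mean, Spp1 was highest in high dose rats of day 6, then low dose rats of day 6, which did not overlap the 4 groups below, and those 4 overlapped each neighbour in the order. Siglec1 had a single gap, between high dose rats of day 6 and all other groups. Every other member's neighbouring groups overlapped. Mrc1 alone among the 9 measured members had its highest mean in high dose rats of day 28 (0.85).

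Over the 30 rats, each gene was centred on the 10 air rats and genes were compared by the root mean square of their difference, as a description. Cd68 and Gpnmb were the closest member pair, at 0.20 log2 units, then Cd68 and Msr1 at 0.29. Nearest to Siglec1 were Clec2d2l1, Slamf9 and Bcat1 (0.52, 0.52 and 0.54). For Spp1 they were the chemokine Ccl1, the nucleotide reductase subunit Rrm2 and the cystine transporter Slc7a11 (0.31, 0.33 and 0.33), which stood 3.10, 3.06 and 3.47 above air on day 6 at the high dose. For Mrc1 they were Gpr18, Dab2 and Aoah (0.20, 0.22 and 0.23), which stood 0.69, 0.64 and 0.53 above air on day 28 at the high dose. Trem2 was nearest to Trem3, Chst1 and Duoxa1 (0.42, 0.45 and 0.48). Cd68 was nearest to Lgmn, Igsf7 l1 and Prdx5 (0.27, 0.28 and 0.29), Gpnmb to Ctss, Prdx5 and Lgmn (0.32, 0.34 and 0.35) and Msr1 to Clec4a2, Lgmn and Bcl2a1 (0.24, 0.24 and 0.25), with Lgmn and Ctss encoding lysosomal proteases. Cd163 was nearest to Pkib, Prodh and Tmem269 (0.30, 0.33 and 0.33), and Csf1r to Orai1, Atp6v1f and Psmb2 (0.19, 0.22 and 0.22). Marco, at background, is left out here.

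Other genes of these pathways were read from fixed lists, whose counts stand beside the 21.1% of all genes called higher and 15.4% called lower at the high dose on day 6. Of 22 other macrophage surface receptors, 15 rose and 1 fell on day 6 at the high dose, with a median of 0.65. Among them were the Toll-like receptor Tlr2 (2.01), the integrin Itgam (2.14), the Fc receptor Fcgr1a (1.91), the endotoxin co-receptor Cd14 (1.89) and Clec4a2 (2.15), all with an adjusted p under 0.05, and Adgre1, which encodes F4/80, rose by 0.85. The gene that fell was the beta-glucan receptor Clec7a, by 1.1 on the log2 scale, named after its value was seen. Of 18 ligands, adaptors and signalling genes of Csf1r and Trem2, 10 rose and 0 fell, with a median of 0.41. The ligand Csf1 rose by 0.95 ± 0.12 (adjusted p = 3.68e-07), while Il34, the other ligand, was at -0.32 (adjusted p = 0.234). The adaptor Tyrobp rose by 0.84, and the transcription factor Spi1 by 0.98. Csf2ra rose by 1.08, and Csf2rb, well above background on 9 of 30 arrays, is given no fold. After the low dose 0 of these 18 were called, and 8 of the 22 receptors rose and 2 fell, Clec7a and the oxidised lipoprotein receptor Olr1 (named after its value was seen), where 4.97% of all genes were called higher and 1.75% lower.

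Of 24 lipid handling and lysosome genes, 12 rose and 4 fell, with a median of 0.45. The fatty acid carrier Fabp5 rose by 2.73 ± 0.25 (adjusted p = 1.48e-09) and the lysosomal proteins Ctsz and Npc2 by 1.89 and 1.47. Lipoprotein lipase Lpl fell by 1.31 and the cholesterol exporter Abcg1 by 1.41 on the log2 scale, the others that fell being the lysosomal lipase Lipa and the growth factor Igf1, by 0.67 and 0.47, named after their values were seen. The carrier Fabp4 was at -0.41 (adjusted p = 0.287). Mmp12, well above background on 24 arrays, is given no fold. Of 14 resident alveolar macrophage genes, 3 rose and 3 fell, with a median of 0.11, shares near those of all genes, so the counts are no result about the list. Pparg, a transcription factor of resident alveolar macrophages, fell by 1.97 at the high dose and by 1.24 at the low dose on the log2 scale (adjusted p = 1.34e-08 and 0.00014). On day 28 Pparg stood at 0.89 ± 0.20 after the high dose (adjusted p = 0.0592). Abcg1 and Cidec, the latter well above background on 22 arrays, also fell, and Csf2ra, Csf2rb and Cebpa rose, Cebpa (named after its value was seen) by 0.48.

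Of 14 osteopontin receptors and cleaving proteases, 3 rose and 6 fell, with a median of -0.10, the share that rose being near that of all genes. The receptor Cd44 was at 0.28 (adjusted p = 0.185), the integrin subunit Itgb1 fell by 0.40, the crosslinking enzyme Tgm2 fell by 0.46, and the matrix protein Fn1 rose by 0.78. Itgav was not measured, and Mmp7 and Mmp9, the other genes called higher, and Itgb3, called lower, were well above background on 10, 18 and 25 arrays and are given no fold. Of 11 ligands, shedding proteases and partners of the scavenger receptors, 7 rose and 0 fell, with a median of 0.72. They included haptoglobin Hp (2.25), part of the haptoglobin-haemoglobin complex that Cd163 takes up, haem oxygenase Hmox1 (2.71), hemopexin Hpx (1.59), Tlr6 (1.15) and Rhbdf2 (0.85), all called. For each of these 6 lists 0 genes were called on day 28 at the high dose, where 0.185% of all genes were. These counts are near that share and are no result about the lists.

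Markers of some other cell types moved in the same lungs. The mean over 9 neutrophil markers was 0.64 to 1.08 in air rats of day 6, 2.02 to 2.76 after the low dose and 2.24 to 2.60 after the high dose, and at the high dose 7 of the 9 rose and 1 fell, the chemokine receptor Cxcr1 (named after its value was seen), where 21.1% of all genes rose and 15.4% fell. The mean over 8 markers of dividing cells was -4.07 to -3.68, -3.04 to -2.44 and -1.96 to -1.64 in the same order. Means over 8 T cell markers were -0.80 to -0.51 in air and -0.26 to 0.28 in high dose rats, and 7 of 8 rose. Of 10 monocyte markers 5 rose and 2 fell, and of 8 pan-leukocyte markers 5 rose. Of 5 dendritic cell markers 3 rose and 0 fell, and of 5 B cell markers 1 rose and 0 fell. Of 9 alveolar type II markers 3 rose and 1 fell. The means of fibroblast and of club and ciliated cell markers overlapped between air and high dose rats. Of 9 alveolar type I markers 7 fell, and of 9 endothelial markers 5 fell. On day 28 the high dose means lay at 0.73 to 1.29 for neutrophil and -3.99 to -3.38 for dividing cell markers, both overlapping the air rats. Of the 5 dendritic cell markers 1 was called higher there, where 0.185% of all genes were called in either direction. The part of these shifts in the members' values was not tested.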

How the data were processed

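RNA of 30 rat lungs was measured on 2-colour Agilent arrays. The authors deposited spot intensities from the scanner, with Agilent Feature Extraction 11.0.1.1 named in the file headers, and a table of log2 ratios, used as an alternative, whose normalization the labels leave unstated. The deposited flags for outliers, background and saturation are codes of 0 or 1 per spot. Median Cy5 and Cy3 intensities were corrected with normexp (offset 50) and normalized by loess within arrays, controls and outlier spots given weight 0, in limma 3.58.1 (R 4.3.3). Of 62976 spots 4259 were controls. Spots were averaged per probe, probes well above background on fewer than 5 of 30 arrays were left out (20853 of 30367 stayed), and the brightest probe stood for a gene. The probes name RefSeq transcripts, which were matched to symbols through a table of the assembly GRCr8.

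A model of 6 group means was fitted across 18421 genes and p-values were adjusted by Benjamini-Hochberg. For each gene the 6 groups shared 1 estimate of the spread, which gave every SE and interval. The number of rats limits the precision. The script was tested on simulated data. The 10 alternatives set out beforehand covered background, normalization, filter, probe choice, fit, slide and each rat. The second Csf1r probe and the fit without the 4 lungs with heart muscle RNA were added after seeing the data. Named genes are the members, in each pathway list the up to 5 genes ranked first by p (high dose against air, day 6), a fixed panel and the 3 nearest genes of each member. Members and lists were chosen with earlier results of these data known. A result for 1 gene of these lists is not reported here.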

Additional observations from a re-analysis of the deposited data

Results flagged for a closer look

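In 60 checks of single lungs against their group, 2 values lay far from the rest, and chance gives about 1 in 20 such checks. Both came from air rat 4 of day 6, the lung with the heart muscle marker mean of 4.67. Its Mrc1 log2 ratio was 0.24, with the nearest other rat at 0.58, and its Csf1r log2 ratio was 0.84, with the nearest at 1.59.

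The effect of exposure differed between day 6 and day 28 for 8 pairs of member and dose, by the interaction of dose and day. That interaction was called for 16.7% of all genes at the high dose and 1.95% at the low dose. At the high dose the log2 changes of effect were -3.0 for Siglec1, -3.11 for Spp1, -1.83 for Msr1, -1.46 for Trem2, -0.97 for Cd163 and 1.23 for Mrc1. At the low dose they were -1.71 for Spp1 and -1.26 for Trem2. The Cd163 call held in 6 of 20 fits that left out 1 rat, and the low dose Trem2 call in 4 of 20.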

How the results depend on the processing

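No paired analysis was possible because the labels number each rat once and no number is shared between groups. Of 990 values of members under an alternative, 921 kept direction and side of the threshold, 29 lost a call, 10 gained one and 30 changed sign. Of 1100 values with 1 rat left out these numbers were 1017, 47, 12 and 24. The cause of the changes below was not tested. Cd163 at the high dose on day 6 lost its call without background correction (adjusted p = 0.0688), with the scanner's processed signals (0.233), median centring (0.09), the authors' table (0.0801), no filter (0.0576) and the compared groups alone (0.105). Csf1r lost its call under the same settings but the last and from Cy5 alone (0.0533 to 0.193). Msr1 between doses lost it with median centring (0.0634), the compared groups alone (0.116) and without the lungs with heart muscle RNA (0.0787).

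Counts of members called ranged over the alternatives from 6 to 8 for the high dose on day 6, from 2 to 4 between doses on day 6, from 5 to 6 for the change of the high dose effect, from 1 to 3 for that of the low dose effect and from 5 to 8 relative to Cd68 at the high dose on day 6. The low dose on day 6 gave 3 in all. The counts that moved by over 1.5 times, or from 0, were these. The high dose on day 28 gave 1 from Cy5 alone, and air rats between days gave 1 without the lungs with heart muscle RNA. The change of the low dose effect gave 1 with median centring, the authors' table, no filter, the mean over probes and slide as a block. Relative to Cd68 the low dose on day 6 gave 1 with processed signals, median centring and slide as a block, and 4 with pan-leukocyte markers. With 1 rat left out, members called ranged from 2 to 7 between doses on day 6, 1 to 3 for the change of the low dose effect and 0 to 4 relative to Cd68 at the low dose on day 6.

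None of the values that changed sign was called. For Marco, at background, whose values are listed for completeness and not read, those at the low dose on day 6 were -0.000877 without background correction, -0.21 with processed signals, -0.0322 with median centring, -0.0409 from Cy5 alone and -0.011 with slide as a block. With median centring they were 0.153 for Spp1 (low dose, day 28), 0.0586 for Marco and -0.0595 for Csf1r (between doses, day 28), -0.0772 for Siglec1 and -0.103 for Spp1 (air rats between days) and 0.00747 for Siglec1 (change of the low dose effect). With slide as a block they were 0.0502 for Mrc1 (between doses, day 6), -0.00753 for Siglec1 and -0.00866 for Spp1 (air rats between days), and for Spp1 on day 28 0.0892 (high dose), 0.0735 (low dose) and 0.0157 (between doses). Cy5 alone gave 0.0194 for Mrc1 (between doses, day 6) and 0.0339 for Csf1r (change of the high dose effect), which was 0.0605 in the authors' table. Cd163 between doses on day 28 was 0.000328 without background correction. Without the lungs with heart muscle RNA, Spp1 on day 28 was 0.0342 (high dose) and 0.182 (between doses), and Csf1r was -0.214 (between doses). The mean over probes gave -0.0743 for Csf1r (change of the low dose effect). The second Csf1r probe gave -0.325 there, -0.218 and -0.184 on day 28 (high and low dose), -0.0336 between doses and 0.338 in air rats between days.

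With 1 rat left out, the values of members that changed sign in at least 1 fit ran from -0.118 to 0.122 for Marco (low dose, day 6), -0.00183 to 0.247 for Csf1r (low dose, day 6), -0.141 to 0.114 for Mrc1 (between doses, day 6), -0.114 to 0.0427 for Spp1 (high dose, day 28), -0.189 to 0.021 for Msr1 (low dose, day 28), -0.147 to 0.051 for Spp1 (low dose, day 28), -0.0736 to 0.0498 for Marco (between doses, day 28), -0.192 to 0.0233 for Cd163 (between doses, day 28), -0.0927 to 0.0996 for Spp1 (between doses, day 28), -0.0596 to 0.294 for Csf1r (between doses, day 28), -0.216 to 0.0231 for Marco (change of the high dose effect) and -0.335 to 0.014 for Csf1r (change of the high dose effect). Array signal limits Marco, which was well above background on 5 of 30 arrays, and the filter that asks for all 5 arrays of a group removed it.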
